A study of Mus musculus with 6 samples.

Results

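Interferon-stimulated genes are the genes that cells switch on when interferon, a secreted warning signal of infection, binds its receptors. The set described here has 39 such genes, taken by gene symbol from a written list of sensors, transcription factors, GTPases and antiviral effectors. Of the 39, 37 had a probe set that carried their symbol alone. Isg15 shares its probe set with a second gene symbol, Ifi44 had no probe set with its symbol alone, and neither is analysed here. Where a gene had several probe sets, the brightest on average over the 6 arrays stood for it. Genes whose mean over those arrays was 6 or more on the log2 scale are called expressed, which held for 18 of the 37. The other 19 were dim and are described apart. Over the whole array 9173 of 18194 genes were expressed by this rule. The nearest members inside the threshold were Ddx58 at 6.19, Parp9 at 6.21 and Dtx3l at 6.24, and the nearest outside it were Ifih1 at 5.58, Xaf1 at 5.44 and Oas2 at 5.13.

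The cells were mouse mesenchymal stem cells from a commercial supplier, stromal cells able to form fat, bone or cartilage, whose strain is not given in the sources used here. In 3 cultures they received 12 h of pulsed broadband terahertz radiation centred near 10 THz, which lies between microwaves and the infrared, in pulses of 35 fs at 1 kHz and 1 mW/cm2. Beside each stood an unirradiated control culture of the same experiment, so there were 3 irradiated and 3 control arrays. All 6 cultures were held at 26 to 27 °C, in a fat-forming medium with rosiglitazone (1 µM), insulin (5 µg/ml), IBMX (100 µM) and dexamethasone (1 µM), added 48 h earlier. Fetal bovine serum was given as 5% for all 6 cultures. Dexamethasone is a glucocorticoid and IBMX blocks cyclic AMP breakdown. RNA was taken at the end of the exposure, and the comparison asks which transcripts then differed between irradiated cells and their own controls. Values are log2 expression per probe set, made by the authors with RMA, and differences are irradiated minus control. The number of arrays limits the precision. The RNA is that of whole cultures, where fewer cells of a type and less RNA per cell cannot be told apart.

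Array medians lay between 4.74 and 4.80. Of the stromal markers 10 of 11 measured were expressed, with Thy1 dim, and all 8 measured fat cell markers were expressed. All 16 macrophage markers on a list of that cell type were expressed as well, against 1 of 9 measured markers of lymphoid, NK and plasmacytoid dendritic cells and 0 of 6 endothelial markers. That 1 was Gzmb, the protease granzyme B of cytotoxic cells, which read 9.12, 8.37 and 8.88 in irradiated cells, against 9.70, 9.41 and 8.55 in control cells. Its control 3 lay at -1.005 from the mean of controls 1 and 2, and its part in the members' low control 3 was not tested. The log2 of the summed macrophage marker signal was 15.67, 16.23 and 16.31 on irradiated arrays, against 15.84, 16.24 and 16.53 on control arrays. That of the stromal markers was 14.60, 14.44 and 14.48 on irradiated arrays, against 14.51, 14.37 and 14.47 on control arrays. Stromal and macrophage transcripts were both present in every culture, whose label names only mesenchymal stem cells.

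As background, type I interferons bind the receptor chains Ifnar1 and Ifnar2 and activate the kinases Jak1 and Tyk2. A complex that holds Stat2 and Irf9 then binds a promoter element called ISRE. Interferon gamma signals through Ifngr1 and Ifngr2, Jak1 and Jak2, and acts on promoters through a shorter element called GAS. Many of the products are themselves sensors of viral nucleic acid or factors of the same pathway, so the system feeds back on itself.

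The promoters show which of these elements the genes carry, so those of 5 expressed members are printed: 3 among the widest differences of experiment 3 whose windows held an element (Irgm1, Igtp and Oas1a), and 2 that were higher in each of the experiments (Gbp2 and Irf1). Windows run from 250 bases before to 50 bases after the gene's start, on the gene's own strand, 5′ to 3′, from RefSeq with build GRCm38.p6. Capitals mark the ISRE core, which is GAAA and GAAA with any 2 bases between, or the GAS, which is TTC and GAA with any 3 bases between, each searched on both strands. Irgm1 lies at chr11:48871371-48871670 (minus strand), Igtp at chr11:58199306-58199605 (plus strand) and Oas1a at chr5:120907476-120907775 (minus strand). Gbp2 lies at chr3:142620413-142620712 and Irf1 at chr11:53769764-53770063, both on the plus strand.
Irgm1: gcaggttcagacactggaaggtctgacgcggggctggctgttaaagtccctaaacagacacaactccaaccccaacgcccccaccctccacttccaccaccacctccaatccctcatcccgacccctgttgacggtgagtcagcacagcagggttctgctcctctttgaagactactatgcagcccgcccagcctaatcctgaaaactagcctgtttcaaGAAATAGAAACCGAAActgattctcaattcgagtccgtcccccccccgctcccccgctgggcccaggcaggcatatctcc
Igtp: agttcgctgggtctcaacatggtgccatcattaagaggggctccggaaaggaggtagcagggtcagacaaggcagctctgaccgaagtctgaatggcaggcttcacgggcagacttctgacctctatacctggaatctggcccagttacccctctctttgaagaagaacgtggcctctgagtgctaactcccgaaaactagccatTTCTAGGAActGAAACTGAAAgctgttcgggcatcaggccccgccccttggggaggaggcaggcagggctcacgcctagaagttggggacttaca
Oas1a: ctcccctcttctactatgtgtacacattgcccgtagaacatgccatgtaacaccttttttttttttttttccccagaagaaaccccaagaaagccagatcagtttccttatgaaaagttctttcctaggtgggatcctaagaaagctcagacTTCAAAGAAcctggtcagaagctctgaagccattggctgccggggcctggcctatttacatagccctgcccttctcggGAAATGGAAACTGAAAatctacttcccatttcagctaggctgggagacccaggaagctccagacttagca
Gbp2: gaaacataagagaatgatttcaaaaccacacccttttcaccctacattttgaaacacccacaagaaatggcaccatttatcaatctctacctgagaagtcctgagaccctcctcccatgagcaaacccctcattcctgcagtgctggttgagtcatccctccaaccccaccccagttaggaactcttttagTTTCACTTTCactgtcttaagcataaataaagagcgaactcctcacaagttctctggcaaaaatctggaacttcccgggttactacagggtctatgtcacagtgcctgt
Irf1: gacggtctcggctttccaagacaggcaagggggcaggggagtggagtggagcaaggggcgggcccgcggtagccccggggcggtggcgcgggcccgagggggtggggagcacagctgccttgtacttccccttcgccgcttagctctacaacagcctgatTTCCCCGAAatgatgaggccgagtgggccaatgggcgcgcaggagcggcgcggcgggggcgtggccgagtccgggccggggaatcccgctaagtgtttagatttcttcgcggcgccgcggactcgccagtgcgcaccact
Irgm1 and Oas1a each had a pair of overlapping ISRE cores, which start at positions -30 and -24 in Irgm1 and at -20 and -14 in Oas1a. Igtp had a GAS at -45 and an ISRE core at -34, and Oas1a had a GAS at -98. Gbp2 had 1 ISRE core at -59, and Irf1 had a GAS at -90 and no ISRE core in the window. A second window of Irf1 held neither.

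A promoter window was at hand for 30 of the 39 genes. An ISRE core stood in at least 1 window of 16 of these genes (53.3%), against 1079 of all 27025 genes with a window (3.99%). A GAS stood in 9 of the 30 (30.0%), against 2582 of all genes (9.55%). Counted by window, 4 of 38 windows held both motifs (10.5%), against 149 of all 32851 (0.454%). The ISRE core was in 8 of 15 expressed members and in 7 of 13 dim members, and the GAS in 8 of 15 expressed members and 1 of 13 dim members. Samd9l, Dtx3l and Irf9 were the expressed members with neither in these windows. A match is a run of letters and not a shown binding site.

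No expressed interferon-stimulated gene passed the adjusted test between irradiated and control cells. Limma adjusted p values of the 18 ran between 0.619 and 0.981, over all probe sets 0 of 45037 were below 0.05 (0.0%), and the smallest was 0.188. Most members nevertheless stood a little higher in irradiated cells: the mean difference was positive for 15 of 18, against 50.6% of all expressed genes. The median difference was 0.11 over the 18 and 0.003 over all expressed genes. Differences of single members lay between -0.18 (Isg20) and 0.48 (Irgm1). With experiment 3 left out, 13 of 18 were higher, a count chosen after seeing the data, against 50.1% of expressed genes. The median was 0.10 without experiment 3 and 0.24 without experiment 2.

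**Figure D1:**
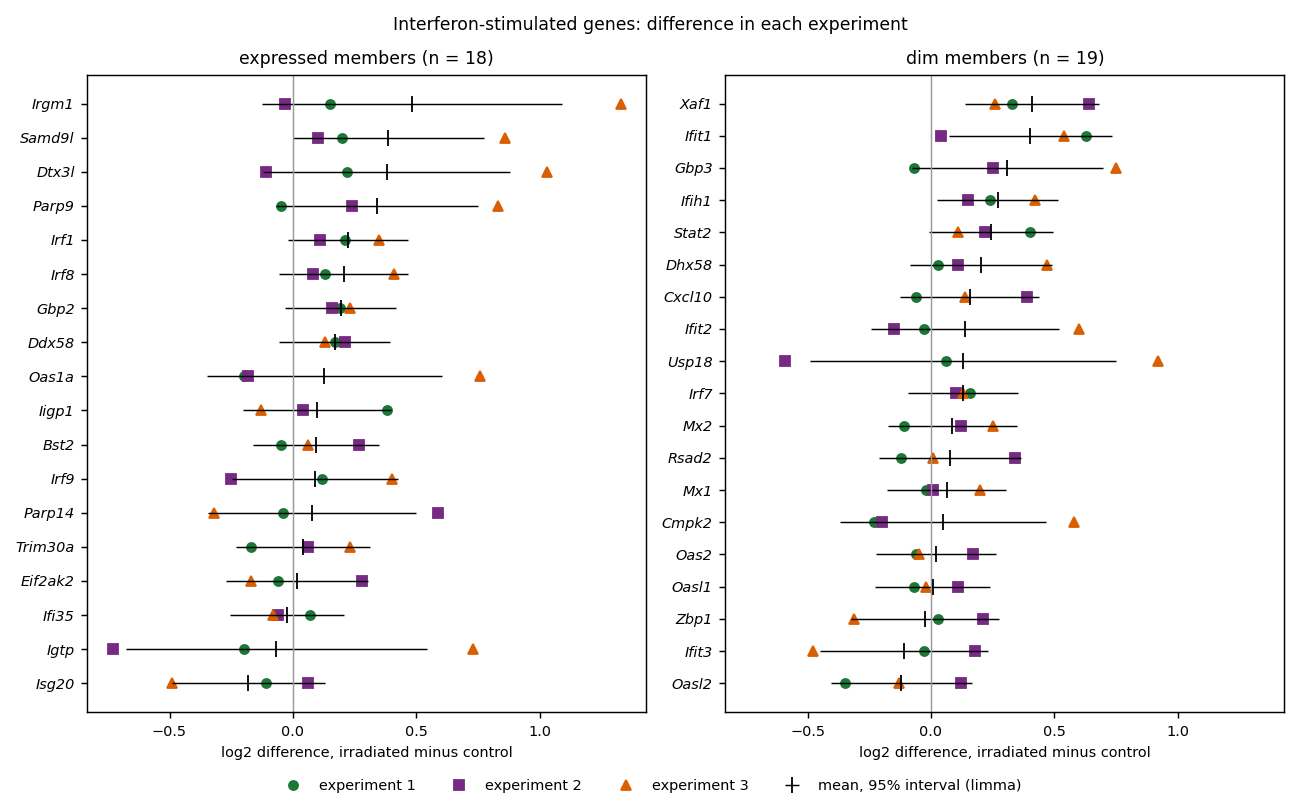
Irradiated minus control difference on the log2 scale for the 18 expressed (left) and 19 dim (right) interferon-stimulated genes, with a point for each of the 3 experiments and a bar for the mean with its 95% interval from the limma fit. Every interval of the expressed genes includes 0. Among the expressed genes the points of experiment 3 lie farthest right for Irgm1 (1.33), Dtx3l (1.03) and Samd9l (0.86).

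At an unadjusted p below 0.05, 0 of the 18 expressed members were called, where 10.5% of all expressed genes were (4.49% higher and 6.02% lower) and 8.06% of all probe sets. The difference had the same positive sign in all 3 experiments for 5 members, Ddx58, Irf1, Irf8, Gbp2 and Samd9l, which is 27.8% of the 18 against 18.6% of expressed genes. None was lower in all 3 experiments, against 18.5% of expressed genes. The 3 irradiated arrays all lay above the 3 control arrays for 2 members, Irf1 and Samd9l (11.1%, against 5.31% of expressed genes), and all below for none, against 7.01%. By experiment, 10, 12 and 13 of the 18 were higher in irradiated cells, against 50.5%, 47.9% and 49.1% of expressed genes.

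Among the sensors of viral RNA, only Ddx58, which encodes RIG-I, was expressed. It read 6.40, 6.26 and 6.17 on the irradiated arrays of experiments 1, 2 and 3, against 6.23, 6.05 and 6.04 on the control arrays. Each irradiated culture was above its own control, but the groups overlapped. The differences of 0.17, 0.21 and 0.13 were alike in size, and their mean of 0.17 ± 0.09 (SE, n = 3 pairs) had a limma adjusted p of 0.679.

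Of the transcription factors, Irf1, Irf8 and Irf9 were expressed. Irf1, an early activator of interferon-induced genes, read 8.52, 8.48 and 8.71 in irradiated cells, against 8.31, 8.37 and 8.36 in control cells. All 3 irradiated values lay above all 3 control values. The mean was 8.57 ± 0.12 in irradiated and 8.35 ± 0.03 in control cells (SD, n = 3 each), a difference of 0.22 ± 0.10 (SE; 95% interval -0.02 to 0.47; limma adjusted p = 0.635). Irf9, the DNA-binding subunit of the ISRE complex, read 6.51, 6.22 and 6.66 in irradiated cells, against 6.39, 6.47 and 6.26 in control cells. It was lower than its control in experiment 2 and higher in the others, with a mean difference of 0.09 ± 0.14 that turned to -0.07 without experiment 3.

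Irf8 is a factor of macrophages and dendritic cells, and its level moved with the experiment in both groups. It read 6.48, 7.16 and 7.91 in irradiated cells, against 6.35, 7.08 and 7.50 in control cells. Both experiment 1 arrays were the lowest of the 6 and both experiment 3 arrays the highest. Within experiments irradiated cells were higher by 0.13, 0.08 and 0.41, a mean of 0.21 ± 0.11 (limma adjusted p = 0.666), while the SD within a group was 0.72 in irradiated and 0.58 in control cells. A second Irf8 probe set read 5.66, 6.57 and 6.12 in irradiated cells, against 5.71, 6.21 and 6.24 in control cells, a difference of 0.06 ± 0.12 with no single sign.

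The macrophage markers had the same low experiment 1. C1qc, a subunit of complement C1q made by macrophages, read 10.08, 11.10 and 11.49 in irradiated cells, against 10.27, 11.05 and 11.78 in control cells. Both experiment 1 arrays were the lowest of the 6 for 13 of the 16 macrophage markers (81.2%), against 1151 of 9173 expressed genes (12.5%). Among the 18 interferon-stimulated genes this held for 3 (16.7%), Irf8, Parp14 and Trim30a. Between groups 15 of the 16 macrophage markers had a lower mean in irradiated cells and 1 a higher one, against 48.5% and 50.6% of all expressed genes, with a median difference of -0.10. By experiment that median was -0.225, 0.07 and -0.145, and 5 of the 16 were lower in all 3 experiments, against 18.5% of expressed genes. Cd14, a co-receptor for bacterial lipopolysaccharide, had the only unadjusted p below 0.05 among the 16 markers, at -0.73 ± 0.19 (limma adjusted p = 0.538). The part of macrophage content in the members' differences was not tested.

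**Figure D2:**
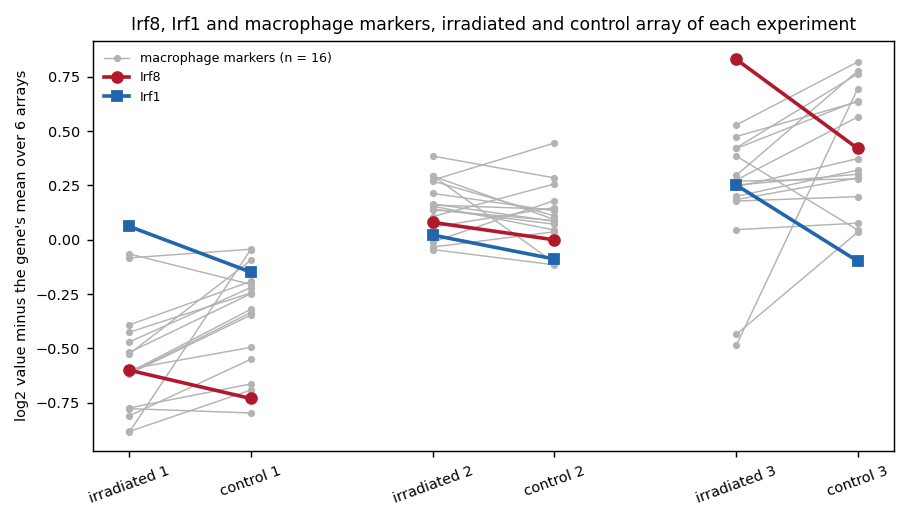
Deviation of Irf8 (red), Irf1 (blue) and the 16 macrophage markers (grey) from each gene's own mean over the 6 arrays on the log2 scale, with lines that join the irradiated array to its control on the right. Irf8 and most markers lie low on both arrays of experiment 1 and high on those of experiment 3, while Irf1 stays between 8.31 and 8.71 on all 6 arrays.

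Of the 7 interferon-induced GTPases 4 were expressed, all of them from families that act on the vacuoles in which pathogens live. Gbp2, a guanylate-binding protein, read 7.73, 7.22 and 7.18 in irradiated cells, against 7.54, 7.06 and 6.95 in control cells. The groups overlapped because experiment 1 was higher on both arrays, while each irradiated culture stood above its own control by 0.19, 0.16 and 0.23. The mean was 0.19 ± 0.09 (limma adjusted p = 0.649). A second Gbp2 probe set gave 0.22, 0.15 and 0.27, with a mean of 0.21 ± 0.09.

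Irgm1, an immunity-related GTPase tied to autophagy, had the widest mean difference of the expressed members. It read 7.62, 7.21 and 7.67 in irradiated cells, against 7.47, 7.24 and 6.34 in control cells. The groups overlapped, and control 3 lay far below the other arrays. The difference was 0.15, -0.03 and 1.33 in the 3 experiments, with a mean of 0.48 ± 0.25 (1.40-fold; 95% interval -0.13 to 1.09; limma adjusted p = 0.665) that became 0.06 without experiment 3. Igtp, also called Irgm3, read 7.19, 6.69 and 7.37 in irradiated cells, against 7.39, 7.42 and 6.64 in control cells. Its differences of -0.20, -0.73 and 0.73 cancelled to a mean of -0.07 ± 0.25, which was -0.47 without experiment 3.

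Iigp1, an immunity-related GTPase that loads onto parasite vacuoles, read 9.31, 9.39 and 8.73 in irradiated cells, against 8.93, 9.35 and 8.86 in control cells. It was higher in experiment 1 by 0.38, near its control in experiment 2 and lower in experiment 3, with a mean of 0.10 ± 0.12. A second probe set gave -0.07 ± 0.16, so the probe sets differ in sign.

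The enzymes of ADP-ribosylation and ubiquitin transfer had 4 expressed members, all with a positive mean. Parp9, a macrodomain protein, and Dtx3l, a ubiquitin ligase, form a complex and their genes are neighbours in the RefSeq annotation. Parp9 read 6.16, 6.37 and 6.62 in irradiated cells, against 6.21, 6.13 and 5.79 in control cells. Dtx3l read 6.26, 6.35 and 6.67 in irradiated cells, against 6.04, 6.46 and 5.64 in control cells. For both, irradiated 3 was the highest array and control 3 the lowest.

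The differences of Parp9 were -0.05, 0.24 and 0.83, with a mean of 0.34 ± 0.17 (limma adjusted p = 0.655). Those of Dtx3l were 0.22, -0.11 and 1.03, with a mean of 0.38 ± 0.21 (limma adjusted p = 0.679). Without experiment 3 the means became 0.10 (Parp9) and 0.06 (Dtx3l). A second Dtx3l probe set, dim at a mean of 5.62, gave 0.22 ± 0.14.

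Parp14, an ADP-ribosyltransferase, had the opposite order in experiment 3. It read 6.08, 6.72 and 6.45 in irradiated cells, against 6.12, 6.13 and 6.77 in control cells. Differences of -0.04, 0.59 and -0.32 gave a mean of 0.08 ± 0.18. Trim30a, a mouse protein that dampens inflammatory signalling, read 5.96, 6.44 and 6.53 in irradiated cells, against 6.13, 6.38 and 6.30 in control cells. Its mean of 0.04 ± 0.11 was smaller than its SE.

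Of 13 antiviral effectors 5 were expressed, and Samd9l had the smallest adjusted p of the 18 genes. Samd9l, which restrains protein synthesis and growth, read 7.53, 7.59 and 7.65 in irradiated cells, against 7.33, 7.49 and 6.79 in control cells. The irradiated arrays lay close together and all above the control arrays, among which control 3 was far below the other two. The mean was 7.59 ± 0.06 in irradiated and 7.20 ± 0.37 in control cells (SD, n = 3 each). The differences of 0.20, 0.10 and 0.86 had a mean of 0.39 ± 0.16 (SE; 95% interval -0.001 to 0.77; limma adjusted p = 0.619), which became 0.15 without experiment 3.

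Oas1a, an oligoadenylate synthetase whose product activates RNase L, read 7.96, 7.97 and 8.19 in irradiated cells, against 8.16, 8.15 and 7.43 in control cells. The difference was -0.20 and -0.18 in experiments 1 and 2, where irradiated cells were lower, and 0.76 in experiment 3. The mean of 0.13 ± 0.20 turned to -0.19 without experiment 3. Eif2ak2 encodes the kinase PKR, which halts translation on double-stranded RNA, and read 7.10, 7.03 and 6.67 in irradiated cells, against 7.16, 6.75 and 6.84 in control cells. Its mean difference was 0.02 ± 0.12, and 2 further probe sets gave -0.09 ± 0.12 and 0.26 ± 0.13. The largest of these came from a probe set whose control 3, at 5.63, was its lowest array.

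Bst2, or tetherin, which holds budding virions at the cell surface, read 8.13, 8.41 and 8.27 in irradiated cells, against 8.18, 8.14 and 8.21 in control cells. Experiment 2 gave most of its mean difference of 0.09 ± 0.11. Isg20, an exonuclease of single-stranded RNA, read 7.03, 6.63 and 6.07 in irradiated cells, against 7.14, 6.57 and 6.56 in control cells. It had the most negative mean of the 18, -0.18 ± 0.13 (limma adjusted p = 0.745), drawn largely from experiment 3. Ifi35, a leucine zipper protein, read 9.35, 9.35 and 9.31 in irradiated cells, against 9.28, 9.41 and 9.39 in control cells. Its difference was -0.02 ± 0.10, and its 2 other expressed probe sets gave -0.09 ± 0.10 and -0.10 ± 0.10.

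**Figure D3:**
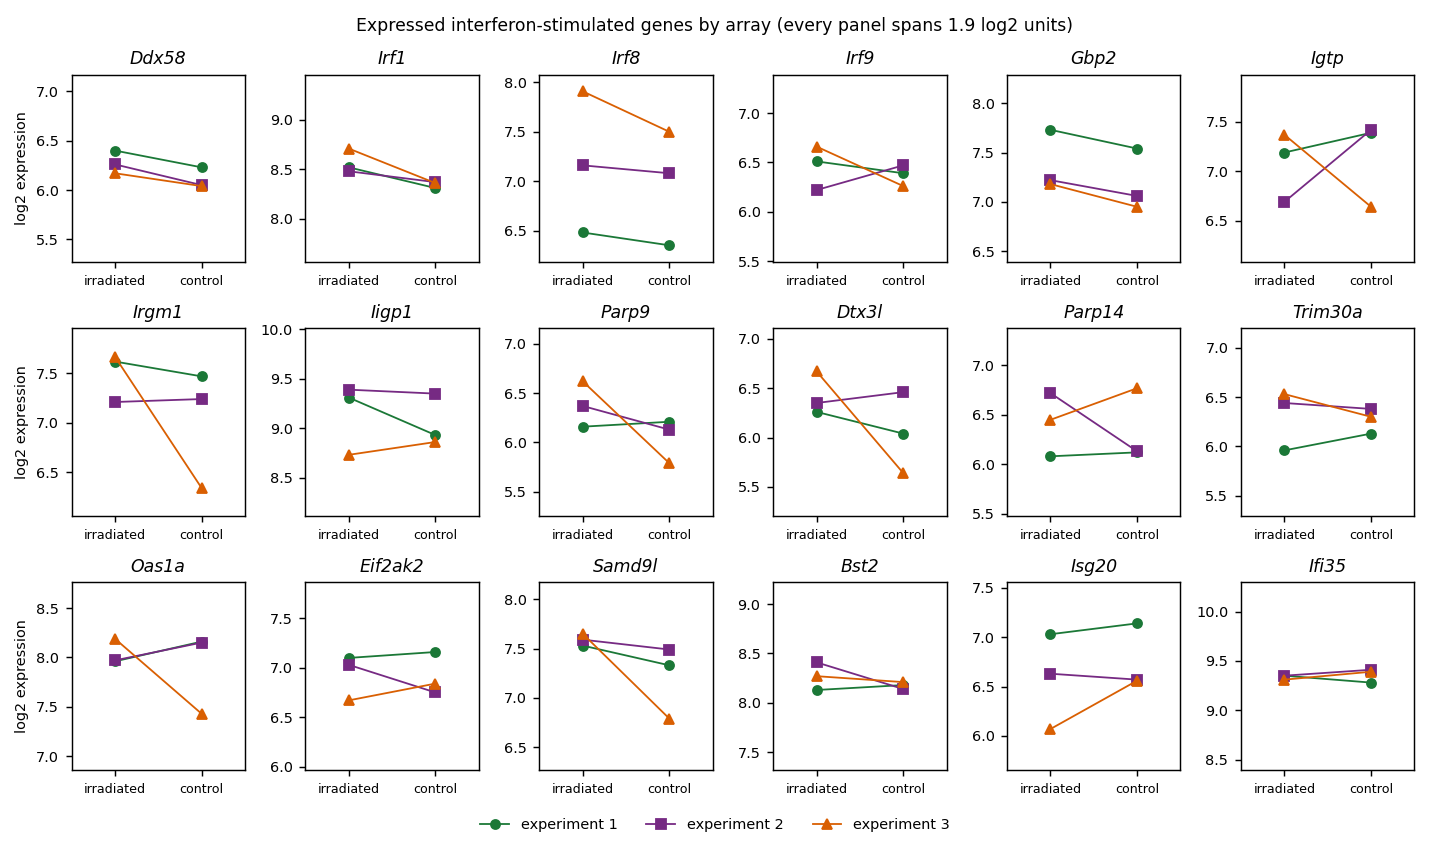
Log2 expression of the 18 expressed members, a panel each, with the irradiated value left of the control value and a line for each of the 3 experiments. The lines of experiment 3 are steepest for Irgm1 (7.67 in irradiated and 6.34 in control cells) and Dtx3l (6.67 and 5.64), and in the panel of Irf8 the experiments lie farther apart than the groups.

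Between experiments the members' median spread was wider than that of all expressed genes. The median SD over the 18 was 0.231 in irradiated and 0.289 in control cells, against 0.144 and 0.136 over all expressed genes. The median SD of the 3 differences was 0.271 for the members and 0.143 for all expressed genes. The differences also varied most from gene to gene in experiment 3, for the members and for all expressed genes. Across the 18 members the SD of the differences was 0.168, 0.273 and 0.499 in experiments 1, 2 and 3, against 0.202, 0.225 and 0.315 across expressed genes. The median difference of the members was 0.10, 0.07 and 0.29, against 0.01, 0.00 and 0.00 over expressed genes.

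The differences of experiment 3 were unequal among the 18 genes, and the threshold of 0.5 used here was chosen after seeing the values. In order of size Igtp (0.73), Oas1a (0.76), Parp9 (0.83), Samd9l (0.86), Dtx3l (1.03) and Irgm1 (1.33) were at or above it, 6 of 18 against 5.24% of expressed genes. The other 12 had a median of 0.10 in experiment 3 and reached at most 0.41. A gene past this threshold is likely to be low on control 3 or high on irradiated 3 by the choice itself, so the order of its arrays is a description. Control 3 was the lowest array for all 6 genes, against 83.8% of the 481 expressed genes past the threshold, and irradiated 3 the highest for 5, against 44.9%. Control 3 lay at -1.02 to -0.38 from the mean of controls 1 and 2, and irradiated 3 was 0.09 to 0.43 above the mean of irradiated 1 and 2. In experiments 1 and 2 the same 6 genes differed by -0.20 to 0.22 and by -0.73 to 0.24.

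Control 3 was the lowest of the 6 arrays for 8 of the 18 members, against 24.6% of expressed genes. The median deviation of the members from their own means was 0.07, 0.07 and 0.23 on irradiated arrays 1, 2 and 3, against -0.04, -0.01 and -0.16 on the control arrays. On each irradiated array 12 of 18 were above their own mean, against 5339, 4014 and 4388 of 9173 expressed genes in array order. On control 3, 14 of 18 were below their own mean, against 4929 of 9173 expressed genes. The hybridisation controls, transcripts spiked into every sample, also differed in experiment 3. Their mean was 11.16, 10.82 and 11.73 on irradiated arrays, against 11.08, 10.85 and 11.23 on control arrays. The gap between the 3′ and 5′ probe sets of the array's control transcripts, a sign of RNA quality, was 0.19, 0.25 and 0.39 on irradiated arrays, against 0.20, 0.28 and 0.38 on control arrays. The part of the spiked signal in the members' differences was not tested.

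**Figure D4:**
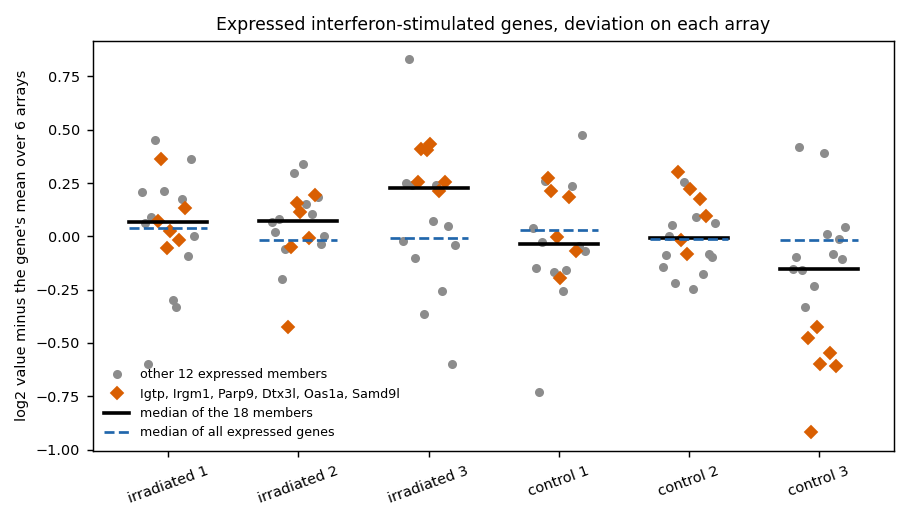
Deviation of each expressed member from its own mean over the 6 arrays on the log2 scale, per array, irradiated arrays left of control arrays, where diamonds are the 6 genes with a difference of 0.5 or more in experiment 3, solid bars the members' median and dashed bars that of all expressed genes. The members' median is 0.23 on irradiated 3 and -0.16 on control 3, and the other 4 arrays lie between -0.04 and 0.07.

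The 19 dim members had means of 2.64 to 5.71 in irradiated and 2.76 to 5.44 in control cells, and differences of -0.12 to 0.41. Of these 16 had a higher mean in irradiated cells, against 51.6% of all dim genes, and Zbp1, Ifit3 and Oasl2 a lower one, against 47.4%. Without experiment 3, 14 of 19 were higher, against 52.4% of dim genes. Their median difference was 0.13, or 0.08 without experiment 3, and 0.007 over all dim genes. By experiment it was -0.03, 0.12 and 0.20, against -0.02, 0.04 and -0.01 over all dim genes, so experiment 1 showed no higher median. At an unadjusted p below 0.05, 3 were called (15.8%, all higher, against 6.07% of dim genes, with 2.90% called higher and 3.17% called lower), Xaf1, Ifit1 and Ifih1. None passed the adjusted test. In all 3 experiments 6 were higher, against 12.8% of dim genes, and none lower, against 11.6%. The groups did not overlap for 5 of the 19, Ifih1, Dhx58, Stat2, Ifit1 and Xaf1, all higher in irradiated cells, against 3.79% of dim genes, and none were wholly lower, against 3.77%. The further Dhx58 probe sets, at means of 3.29 and 3.09, gave -0.12 and -0.09, with groups that overlapped.

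Xaf1, an interferon-induced gene that antagonises the apoptosis inhibitor XIAP, read 5.73, 5.64 and 5.57 in irradiated cells, against 5.40, 5.00 and 5.31 in control cells. Its mean was 5.65 ± 0.08 in irradiated and 5.24 ± 0.21 in control cells (SD, n = 3 each), a difference of 0.41 ± 0.11 (SE; limma adjusted p = 0.538). Xaf1 had the smallest adjusted p of all 37 members, without a low control 3. A second Xaf1 probe set, at a mean of 3.71, gave differences of -0.23, -0.13 and 0.74.

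Ifit1, which binds viral RNA at its 5′ end, read 4.25, 3.83 and 4.07 in irradiated cells, against 3.62, 3.79 and 3.53 in control cells. Experiments 1 and 3 gave its difference of 0.40 ± 0.14 (limma adjusted p = 0.575), and experiment 2 added 0.04. Ifih1, the sensor of long double-stranded RNA also called MDA5, read 5.78, 5.61 and 5.74 in irradiated cells, against 5.54, 5.46 and 5.32 in control cells. It was higher in every experiment, by 0.27 ± 0.10 (limma adjusted p = 0.598). Stat2, the partner of Irf9, differed by 0.40, 0.22 and 0.11, a mean of 0.24 ± 0.10 (limma adjusted p = 0.62). A second Stat2 probe set, at a mean of 4.245, gave differences of 0.11, 0.08 and -0.32, with groups that overlapped.

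Some genes often used to report an interferon response were dim here, while others of the set, such as Oas1a, Bst2 and Iigp1, were expressed. Mx1, a GTPase that blocks viral nucleocapsids, read 3.12, 2.94 and 3.14 in irradiated cells, against 3.14, 2.93 and 2.94 in control cells. Rsad2, which makes a chain-terminating nucleotide, read 4.52, 5.09 and 4.89 in irradiated cells, against 4.64, 4.75 and 4.88 in control cells. Irf7, the factor that amplifies type I interferon, read 5.03, 5.02 and 5.20 in irradiated cells, against 4.87, 4.92 and 5.07 in control cells. The chemokine Cxcl10 read 4.46, 4.70 and 4.49 in irradiated cells, against 4.52, 4.31 and 4.35 in control cells. The groups overlapped for Mx1, Rsad2, Irf7 and Cxcl10. These genes were named after their values were seen.

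Of the dim members Usp18, Gbp3, Ifit2, Cmpk2 and Ifit1 differed by 0.5 or more in experiment 3 (26.3%, against 4.64% of dim genes). Control 3 was the lowest array for 7 of the 19, against 10.0% of dim genes. For all 5, control 3 was the lowest of the 6 arrays, against 56.1% of the 419 dim genes past the same threshold, and irradiated 3 was the highest for 3 of them, against 73.3%. Usp18, which removes Isg15 from proteins and damps the receptor, differed by 0.06, -0.59 and 0.92.

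The rest of the pathway was followed in lists of genes that are not among the 39. All 9 measured interferon genes were dim, with means of 2.56 to 5.03 in irradiated and 2.45 to 4.96 in control cells. Interferon beta (Ifnb1) read 3.88, 4.59 and 4.49 in irradiated cells, against 3.91, 4.07 and 4.22 in control cells, a difference of 0.25 ± 0.13 (limma adjusted p = 0.657). Of the receptors and their kinases 8 of 9 were expressed and all 8 had a higher mean in irradiated cells, against 50.6% of all expressed genes, with a median of 0.11. By experiment that median was 0.10, 0.22 and 0.10, so unlike the members' it was not widest in experiment 3.

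Jak2, the kinase of the interferon gamma receptor, read 9.73, 9.38 and 9.43 in irradiated cells, against 9.48, 9.12 and 9.25 in control cells. Each irradiated culture was above its own control, and the groups overlapped. Its difference of 0.23 ± 0.09 had an unadjusted p below 0.05 (limma adjusted p = 0.614). Ifnar1 differed by 0.24 ± 0.11, Ifnar2 by 0.12 ± 0.10, Ifngr1 by 0.11 ± 0.14 and Ifngr2 by 0.14 ± 0.12, none with an unadjusted p below 0.05. Jak1 differed by 0.08 ± 0.11 and Tyk2 by 0.01 ± 0.10. Of the signal factors Irf3, which switches on interferon beta, differed by 0.04 ± 0.10.

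Of 9 expressed genes upstream that sense nucleic acid and pass the signal on, 6 had a lower and 2 a higher mean in irradiated cells, against 48.5% and 50.6% of all expressed genes, with a median of -0.04. By experiment that median was -0.10, -0.02 and -0.36, against 0.10, 0.07 and 0.29 for the 18 expressed members. Myd88, the adaptor of most Toll-like receptors, read 8.86, 9.14 and 9.16 in irradiated cells, against 9.13, 9.33 and 9.77 in control cells. It was lower in every experiment, with a mean difference of -0.36 ± 0.12 (limma adjusted p = 0.573). The other 5 measured genes of this list were dim. Of these Aim2 (-0.49 ± 0.12) and Sting1 (-0.33 ± 0.13) were lower in every experiment and had an unadjusted p below 0.05. Of all dim genes 3.17% were called lower, and none passed the adjusted test. Tlr3 (0.15), Ikbke (0.003) and Tlr9 (-0.16) were not called. Of 10 expressed negative regulators, 6 had a higher and 3 a lower mean, against 50.6% and 48.5% of all expressed genes, with a median of 0.07. None had an unadjusted p below 0.05, against 10.5% of expressed genes.

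Among 25 further expressed interferon-induced genes, 14 had a higher and 11 a lower mean in irradiated cells, with a median of 0.02. This is nearer to the 50.6% higher of all expressed genes than the 15 of 18 above, and the difference between the lists was not tested. At an unadjusted p below 0.05, 3 were higher and 1 lower, against 4.49% and 6.02% of expressed genes. Lgals9, a galectin, read 7.26, 6.96 and 7.71 in irradiated cells, against 6.91, 6.72 and 7.22 in control cells, a difference of 0.36 ± 0.10 (limma adjusted p = 0.538). Ifi47, an immunity-related GTPase, differed by 0.33 ± 0.11 (limma adjusted p = 0.573), and Pml, the scaffold of PML nuclear bodies, by 0.26 ± 0.11 (limma adjusted p = 0.619). Nampt, an enzyme of NAD synthesis, differed by -0.30 ± 0.12 (limma adjusted p = 0.600). All 3 higher genes stood above their own control in each experiment, and Nampt below it. The other 20 of the 45 measured genes on this list were dim and are not in these counts. Of those 20, Epsti1 (0.45 ± 0.15), Gbp7 (0.47 ± 0.17), Slfn5 (0.38 ± 0.12) and Mov10 (0.30 ± 0.10) were higher at an unadjusted p below 0.05. Ccl5 (-0.40 ± 0.12) was lower at that p. Of all dim genes 2.90% were called higher and 3.17% lower, and none passed the adjusted test.

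**Figure D5:**
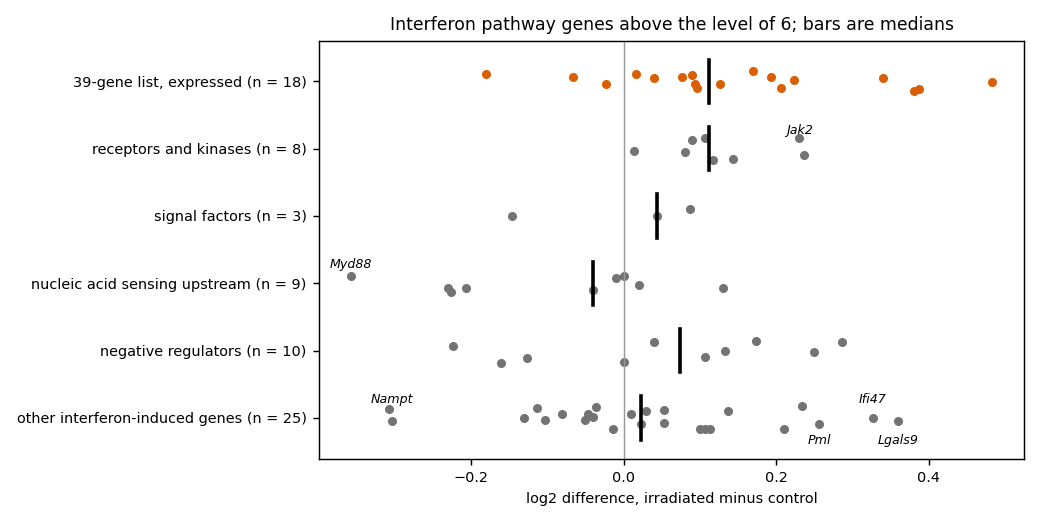
Mean irradiated minus control difference on the log2 scale for each expressed gene of the 39-gene set and of 5 lists of other interferon pathway genes, with the median of each list as a bar. Medians are 0.11 for the 18 expressed members and for the receptors and kinases, 0.04 for the signal factors, -0.04 for nucleic acid sensing, 0.07 for negative regulators and 0.02 for other interferon-induced genes.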

How the data were processed

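An Affymetrix mouse expression array was hybridised for 3 irradiated and 3 control cultures, from 200 ng of total RNA each, per the labels' protocols. Values were deposited on the log2 scale, 1 per probe set, made with RMA and the affy package, with limma named beside them, per the submitters' processing notes. No version or list of arrays normalized together is named there. RMA forces arrays to one distribution, which hides any shift common to all genes. Of 45101 probe sets, 64 array controls were left out. Of the 45037 others, 34945 carry 1 gene symbol, 932 several and 9160 none in the platform annotation, and 34741 were matched to RefSeq symbols of GRCm38.p6.

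Groups were compared in R 4.3.3 by limma 3.58.1 (lmFit and eBayes, two-sided, Benjamini-Hochberg over 45037 probe sets), with the experiment as a block, since the design text sets each irradiated culture against its own control. The fit had 2 residual and 4.52 prior degrees of freedom. Deviations from group means over expressed genes correlated at 0.789, 0.028 and 0.325 for the pairs of experiments 1, 2 and 3, and at 0.553 for irradiated 2 with control 3, so the pairing rests on the design text. Arrays correlated at 0.989 to 0.9959 and none were identical. The fit was tested on simulated data.

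All 39 genes are accounted for. Every expressed one is given with its values, as are its other probe sets at 6 or more. Dim ones are named at an unadjusted p below 0.05, and pathway genes outside the set where expressed and below that p, beside a few set receptors, kinases and factors. Dim genes of the nucleic acid sensing list and of the further interferon-induced genes were added after their values were seen. The members and lists were chosen with earlier results of these data known, so their counts and medians are descriptions, set beside those of all genes. Promoter motifs were searched in Python 3.11.15 and figures drawn with matplotlib 3.10.9.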

Additional observations from a re-analysis of the deposited data

Results flagged for a closer look

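The hybridisation controls, 18 probe sets for spiked-in transcripts that enter no comparison, were brighter on the irradiated than on the control array of experiment 3, by 0.502 on the log2 scale. The same difference was 0.081 in experiment 1 and -0.034 in experiment 2. Experiment 3 is also where 6 of the 18 expressed interferon-stimulated genes differed by 0.5 or more, against 5.24% of expressed genes. That threshold was chosen after seeing the values, and a link between the spiked signal and these genes was not tested.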

How the results depend on the processing

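The design has 3 pairs and 2 residual degrees of freedom, and standard errors of the expressed members lay between 0.09 and 0.25. Under the settings that gave adjusted p values for the 18 expressed members, none was below 0.05, and the 19 dim members were not followed there. Probe sets past an adjusted p of 0.05 numbered 0, or 2 with the experiment as a random replicate block. Those at an unadjusted p below 0.05 numbered 3631, against 2168 with no replicate block, 2155 with dim probe sets left out, and 1692 to 3748 with each experiment left out in turn. Expressed members at an unadjusted p below 0.05 numbered 0, also with no replicate block, with median centring, with array weights and, as a setting chosen after seeing the data, over every member probe set at 6 or more. They numbered 1 after quantile normalization (Samd9l) and 2 with a random replicate block or with an intensity trend and robust prior (Irf1 and Samd9l). They numbered 2 with dim probe sets left out (Irf1 and Gbp2), 3 with the mean of a gene's probe sets (Irf1, Gbp2 and Samd9l), 2 at a level of 5 or more (Ifih1 and Xaf1), and 0 to 1 with each experiment left out (Parp9 without experiment 1). In the main fit 10.5% of expressed genes were called, and their share under the other settings was not counted. Over all 45037 probe sets 3663 were called after quantile normalization, 3704 with the random replicate block and 3921 with the intensity trend and robust prior. Members with one sign in every experiment numbered 5, or 10 at a level of 5 or more, and 8 to 11 where only 2 experiments remained. Members with a higher mean numbered 15, and 13 to 14 with each experiment left out. The median of the expressed members was 0.11, and 0.10 to 0.24 with each experiment left out. Over all 37 measured members it was 0.13, and 0.09 to 0.18. Among the 18 members the sign changed in Iigp1 without experiment 1, where Igtp came to 0, in 3 without experiment 2 (Igtp, Parp14 and Eif2ak2), in 4 without experiment 3 (Irf9, Trim30a, Oas1a and Ifi35) and in 3 with array weights (Trim30a, Oas1a and Ifi35). The causes of these changes were not tested. With dim probe sets left out no value over all measured members could be had, and with the mean of a gene's probe sets no count of probe sets.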
